A study of Mus musculus with 6 samples.

Results

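Transcripts of 10 genes of the leukaemia inhibitory factor (LIF) and STAT3 pathway were followed through cycloheximide treatment of mouse embryonic stem cells. The genes were Socs3, Socs2 and Cish (feedback inhibitors), Lifr and Il6st (receptor chains), Jak1 and Stat3 (the kinase and the transcription factor) and Pim1, Pim3 and Bcl3 (targets of STAT3). They were found by symbol among the 17485 genes of the count files, where each had 1 row, and all 10 passed the filter on low counts that 12755 genes passed. They were chosen with their changes in these libraries already known, so the 10 were not tested as a list. Their values, and their calls in a test run on every gene that passed, are given as descriptions.

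The cells were of the E14 line, an embryonic stem cell line from 129/Ola mice, and were grown with serum (15%) and LIF (1000 U/mL) in every group. From 24 h after seeding they received cycloheximide, an inhibitor of translation elongation, at 250 µg/mL for 3 h or 6 h, given in ethanol (0.007%), or ethanol without the drug for 9 h. Each group held 2 RNA-seq libraries, the control was exposed for longer than either treated group, and no source used here says whether the libraries of a group came from separate cultures. The spread between them may therefore be technical. All libraries came from 1 line, and in bulk RNA fewer cells of a type and less RNA per cell cannot be told apart.

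LIF binds a receptor made of the LIF receptor chain and gp130, the chain that it shares with other cytokines of the interleukin-6 family. Janus kinases on the receptor phosphorylate STAT3, which enters the nucleus and switches on genes that help mouse embryonic stem cells to renew themselves. One such gene, Socs3, encodes a protein that binds gp130 and the kinase and shuts the signal off, so the pathway carries its own brake, and that brake has to be translated to work. Socs3 mRNA is known to be short-lived.

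The control libraries held 15423587 and 9385447 counts, those of the 3 h group 15297359 and 16760304, and those of the 6 h group 27351079 and 23121225, the 2 highest totals. A floor of 3 counts lay at 0.0990 to 0.367 CPM (the gene's counts as a share of the tested genes' library after TMM scaling, the unit used for every level here). Mitochondrial genes took 24.7% and 24.9% of counts in the control libraries, 19.6% and 18.9% in those of 3 h, and 17.4% and 16.6% in those of 6 h. The numbers of genes called in fits without mitochondrial genes are given with the other settings below. Other effects of this difference were not tested. Of 8 pluripotent stem cell markers all 8 were detected with at least 3 counts in every library, and their summed level was 6546 to 6716 CPM in the control, 7538 to 7771 at 3 h and 5235 to 5444 at 6 h. Its members differed in direction at 3 h: Sox2 stood at 2282 and 2602 CPM in the control and 3849 and 3958 CPM at 3 h, whereas Utf1 stood at 1063 and 1060.1 CPM in the control and 801 and 744 CPM at 3 h. At 6 h Sox2 (2338 and 2377 CPM) and Esrrb (472 and 503 CPM, against 484 and 527 CPM) overlapped the control. The other listed stem cell markers lay below it, Pou5f1 only narrowly. Zfp42 stood at 727 and 676 CPM in the control and 351 and 359 CPM at 6 h. The 7 of 8 listed endoderm markers that were in the files summed to 5.41 to 7.70 CPM in the control, 13.8 to 14.7 at 3 h and 12.1 to 14.8 at 6 h, with 4 detected in every library. The 7 of 8 mesoderm and trophoblast markers in the files, with 2 detected in every library, summed to 8.31 to 10.2 CPM in the control, 13.8 to 16.1 at 3 h and 15.2 to 16.0 at 6 h. Most of the treated sums was Tfap2c, at 4.52 and 6.84 CPM in the control, 12.4 and 9.77 CPM at 3 h, and 12.1 and 13.3 CPM at 6 h. Mixl1 did not rise, with 1.70 and 0.978 CPM in the control and 1.06 and 0.958 CPM at 6 h. The 8 neural progenitor markers, with 4 detected in every library, summed to 331 to 342, 288 to 328 and 146 to 154 CPM in the same order. Most of that sum was Tubb3, at 262 and 267 CPM in the control and 75.1 and 68.4 CPM at 6 h, while Nes was higher at 6 h (8.45 and 10.7 CPM) than in the control (3.63 and 1.96 CPM). The 6 of 8 fibroblast markers in the files, with 4 detected in every library, summed to 8.67 to 10.9, 6.14 to 15.2 and 4.87 to 9.21 CPM. No listed marker present in the files was at 0 in every library, and the part of these marker levels in the results was not tested.

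STAT3 and STAT5 bind palindromic sites of the form TTCNNNGAA. Promoters of Socs3, Cish and Pim3 are shown because the first and the second hold such a site close to the start, while the third, a gene with a similar time course to Socs3, holds no such letters in its window. The sequences are RefSeq's reference sequence (C57BL/6J, build GRCm38.p6), from 250 bases before to 50 bases after the annotated transcription start, written 5′ to 3′ on the gene's strand with each match in capitals. Socs3 lies on the minus strand at chr11:117969317-117969616, Cish on the plus strand at chr9:107296409-107296708 and Pim3 on the plus strand at chr15:88861944-88862243.
Socs3: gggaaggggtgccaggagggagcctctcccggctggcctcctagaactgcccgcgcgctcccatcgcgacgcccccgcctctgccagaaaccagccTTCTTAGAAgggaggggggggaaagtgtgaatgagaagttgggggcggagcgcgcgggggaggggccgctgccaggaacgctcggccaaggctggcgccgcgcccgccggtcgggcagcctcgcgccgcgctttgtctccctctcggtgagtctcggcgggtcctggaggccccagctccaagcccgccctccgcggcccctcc
Cish: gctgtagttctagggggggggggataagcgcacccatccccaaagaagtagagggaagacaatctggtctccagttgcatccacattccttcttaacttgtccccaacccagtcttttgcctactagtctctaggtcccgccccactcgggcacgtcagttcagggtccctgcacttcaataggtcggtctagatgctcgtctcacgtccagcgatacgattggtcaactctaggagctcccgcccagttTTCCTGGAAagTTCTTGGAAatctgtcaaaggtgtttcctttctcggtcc
Pim3: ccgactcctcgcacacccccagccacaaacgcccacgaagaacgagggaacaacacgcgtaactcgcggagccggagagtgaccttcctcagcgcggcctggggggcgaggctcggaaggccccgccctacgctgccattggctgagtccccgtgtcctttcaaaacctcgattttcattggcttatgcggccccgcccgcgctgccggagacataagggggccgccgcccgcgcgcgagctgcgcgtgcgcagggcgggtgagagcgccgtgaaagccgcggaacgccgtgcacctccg

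The Socs3 window held 1 match, TTCTTAGAA, that begins 154 bases before the start (chr11:117969512-117969520). The Cish window held 2 matches, TTCCTGGAA from RefSeq's first transcribed base (chr9:107296659-107296667) and TTCTTGGAA from base 12 (chr9:107296670-107296678). The motif reads the same on both strands, and the Cish matches do not overlap. RefSeq windows were matched for 9 of the 10 genes (11 windows, since some genes have several starts), and Socs2 had no entry. A match was found in 2 of these 9 genes, in 2 of their 11 windows. Of all 32851 promoter windows of the same length, 8.30% held at least 1 match and 0.457% held 2 or more. With 11 windows, nothing is read from this count. GC content was 73.3% in the Socs3 window, 53.3% in that of Cish and 69.0% in that of Pim3. A match describes the letters only. Positions are counted from RefSeq's start, and the GENCODE loci of these 3 genes given with their values begin further upstream.

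Socs3 was higher after 3 h of cycloheximide and lower after 6 h than in the control. It encodes the inhibitor that binds gp130 and the Janus kinase, and lies at chr11:117966079-117970047 on the minus strand (build mm10, GENCODE M21, as for every locus here). Socs3 stood at 92.9 and 94.3 CPM in the control, 245 and 239.7 CPM at 3 h, and 54.3 and 57.4 CPM at 6 h. The 3 groups did not overlap, and the replicates of each lay close together (SD 0.997, 3.77 and 2.24 CPM, n = 2 each). The mean of 242 CPM at 3 h was 259% of the control mean of 93.6 CPM, and the mean of 55.8 CPM at 6 h was 59.6% of it. The log2 fold change of Socs3 was 1.37 ± 0.11 (SE, n = 2 libraries a group) at 3 h and -0.75 ± 0.11 at 6 h. Between 3 h and 6 h the log2 difference of Socs3 was -2.12 ± 0.11, a level 4.34-fold lower. Of the 12755 genes tested, 0.282% had a lower log2 value than Socs3 from 3 h to 6 h. At 3 h, 6.00% of genes had a greater log2 fold change against the control than Socs3.

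Socs2 and Cish, the other feedback inhibitors, overlapped the control at 3 h, and at 6 h Cish lay below it while Socs2 overlapped it. Both are known mainly as STAT5 targets that restrain growth hormone and cytokine receptors. Socs2 (chr10:95385362-95417180, minus strand) stood at 168 and 135 CPM in the control, 167 and 173 CPM at 3 h, and 139 and 128 CPM at 6 h. The 2 control libraries were further apart than any other pair for Socs2, and both comparisons with the control overlapped. Socs2 differed from the control by a log2 fold change of 0.17 ± 0.13 at 3 h and -0.18 ± 0.13 at 6 h, and its difference from 3 h to 6 h was -0.35 ± 0.13. Cish (chr9:107296026-107302784, plus strand) rested on 68 to 136 counts a library, with 6.15 and 8.31 CPM in the control, 7.30 and 6.36 CPM at 3 h, and 3.80 and 5.21 CPM at 6 h. Its 2 libraries at 6 h lay below the other 4. For Cish the log2 fold change was -0.07 ± 0.29 at 3 h, -0.67 ± 0.29 at 6 h and -0.60 ± 0.29 from 3 h to 6 h.

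The 2 receptor chains lay higher at 6 h than in the control. Lifr encodes the chain that gives the receptor its specificity for LIF. Lifr (chr15:7090614-7197489, plus strand) stood at 29.5 and 25.7 CPM in the control, 29.8 and 26.9 CPM at 3 h, and 32.7 and 36.6 CPM at 6 h. The control and 3 h libraries of Lifr overlapped, and both 6 h libraries lay above them. Lifr differed from the control by a log2 fold change of 0.03 ± 0.15 at 3 h and 0.33 ± 0.15 at 6 h. Il6st, which encodes gp130, lies at chr13:112464070-112510086 on the plus strand and had 52 to 271 counts a library. Il6st stood at 5.63 and 6.35 CPM in the control, 9.24 and 10.6 CPM at 3 h, and 8.94 and 9.20 CPM at 6 h. The 4 treated libraries were above both controls for Il6st. For Il6st the log2 fold change was 0.73 ± 0.23 at 3 h, 0.60 ± 0.22 at 6 h and -0.13 ± 0.21 from 3 h to 6 h.

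Jak1 was lower and Stat3 higher than the control at 6 h. Jak1 encodes the kinase that carries most of the gp130 signal and Stat3 the factor that it phosphorylates. Jak1 (chr4:101152367-101265282, minus strand) stood at 54.6 and 58.8 CPM in the control, 50.3 and 54.3 CPM at 3 h, and 36.7 and 34.8 CPM at 6 h. At 3 h the higher Jak1 value lay just under the lower control, and at 6 h both values lay far under the other 4. Jak1 differed from the control by a log2 fold change of -0.12 ± 0.13 at 3 h and -0.67 ± 0.13 at 6 h. Stat3 (chr11:100885098-100939540, minus strand) stood at 349 and 292 CPM in the control, 489 and 416 CPM at 3 h, and 489 and 500.3 CPM at 6 h. The 4 treated libraries were above both controls for Stat3. Its log2 fold change was 0.50 ± 0.13 at 3 h, 0.63 ± 0.13 at 6 h and 0.13 ± 0.13 from 3 h to 6 h. Stat3 shares 72 bases with Stat5a, which lies on the opposite strand and stood at 0.44 to 1.04 CPM, and Jak1 shares 4 bases with Raver2. Whether the counting used strand is not given in the sources used here, so reads of such overlaps cannot be assigned to a strand.

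Of the STAT3 targets, Pim3 was, like Socs3, above the control at 3 h and below it at 6 h. PIM3 is a serine/threonine kinase that supports survival and self-renewal. Pim3 (chr15:88862186-88865726, plus strand) stood at 109.8 and 104 CPM in the control, 149 and 146 CPM at 3 h, and 67.1 and 53.4 CPM at 6 h, so that its 3 groups did not overlap. The mean of Pim3 was 138% of the control at 3 h and 56.3% at 6 h. Pim3 differed from the control by a log2 fold change of 0.47 ± 0.14 at 3 h and -0.83 ± 0.14 at 6 h, and its difference from 3 h to 6 h was -1.29 ± 0.14.

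Pim1, a kinase gene of the same family (chr17:29490753-29496112, plus strand), was set apart by its controls. It stood at 160.1 and 47.2 CPM in the control, 245 and 242 CPM at 3 h, and 201 and 164 CPM at 6 h. All 4 treated libraries were above both controls, but the 2 controls differed by 1.76 on the log2 scale, a gap that 7.53% of tested genes exceeded. Pim1 differed from the control by a log2 fold change of 1.22 ± 0.43 at 3 h and 0.80 ± 0.42 at 6 h. Without control replicate 1 these values were 2.37 and 1.95, and without control replicate 2 they were 0.60 and 0.19, so the size of the difference in Pim1 rests on which control is used. Bcl3 encodes a nuclear member of the IκB family that works with NF-κB subunits and lies at chr7:19808462-19822770 on the minus strand. Bcl3 stood at 88.6 and 72.9 CPM in the control, 86.6 and 88.3 CPM at 3 h, and 69.9 and 43.2 CPM at 6 h. Its 6 h libraries lay under the other 4 but far apart from each other. Bcl3 differed from the control by a log2 fold change of 0.11 ± 0.21 at 3 h and -0.52 ± 0.22 at 6 h, and its difference from 3 h to 6 h was -0.63 ± 0.21.

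**Figure D1:**
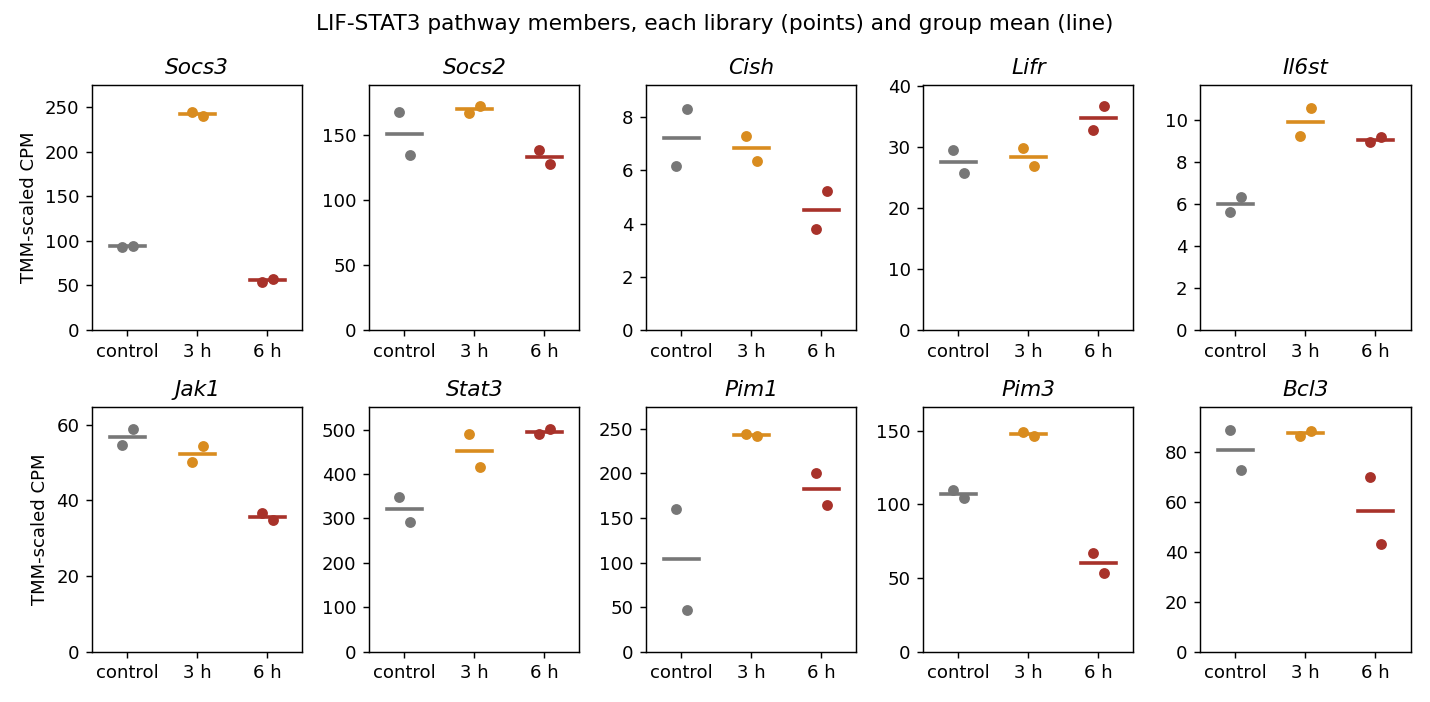
Levels of the 10 genes, 1 panel each, in CPM (linear axis, scaled per gene) for the control, 3 h and 6 h groups; points are single libraries and lines the means of 2. Socs3 and Pim3 peak at 3 h and end under the control, Stat3 and Il6st stay above the control at both times, and the control libraries of Pim1 lie at 160.1 and 47.2 CPM.

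Across the 10 genes the values lay mostly above the control at 3 h and were split at 6 h. The median log2 fold change of the 10 was 0.32 at 3 h, -0.35 at 6 h and -0.48 from 3 h to 6 h, where all tested genes had medians of 0.02, 0.04 and 0.01. The value was positive in 8 of 10 genes at 3 h, 4 of 10 at 6 h and 2 of 10 (Lifr and Stat3) from 3 h to 6 h. At an edgeR adjusted p under 0.05 over all genes, 1 of the 10 was called at 3 h (Socs3, higher), beside 4.9% of all tested genes. At 6 h 4 of the 10 were called (Stat3 higher, and Socs3, Jak1 and Pim3 lower), beside 29% of all tested genes. From 3 h to 6 h 2 of the 10 were called (Socs3 and Pim3, lower), beside 1.64% of all tested genes. These counts come from the contrasts that the genes were chosen on, so nothing is read from them.

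Libraries that did not overlap were common among all genes with 2 libraries a group. At 3 h 5 of the 10 genes lay wholly above the control and 1 wholly below, where 28.4% and 24.8% of all tested genes did. At 6 h 4 lay wholly above and 5 wholly below, where 35.7% and 31.2% of all tested genes did. From 3 h to 6 h 2 lay wholly above and 8 wholly below, where 27.2% and 26.9% of all tested genes did. The comparisons with the control share its 2 libraries.

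Scaling by library size alone, without TMM, moved the median log2 fold change of all genes from 0.02 to 0.25 at 3 h, from 0.04 to 0.40 at 6 h and from 0.01 to 0.14 from 3 h to 6 h. Of all genes called at 3 h, 73.4% were higher with TMM and 95.8% without it; at 6 h these shares were 50.8% and 88.2%, and from 3 h to 6 h 27.8% and 56.5%. The values here are therefore relative to the bulk of genes. Under library size alone Socs3 stood at 1.60 at 3 h and -0.39 at 6 h, Pim3 at -0.47 at 6 h, Stat3 at 0.98 at 6 h and Jak1 at -0.31 at 6 h, which was then not called. Without TMM the small differences of Jak1 (0.11) and Cish (0.15) at 3 h, of Socs2 (0.17) at 6 h and of Il6st from 3 h to 6 h (0.00089) were positive. Without 6 h replicate 2, Stat3 (0.62) and Jak1 (-0.62) were not called at 6 h. The call of Pim3 from 3 h to 6 h was lost without 3 h replicate 1 (-1.28), 3 h replicate 2 (-1.31) or 6 h replicate 2 (-1.13).

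**Figure D2:**
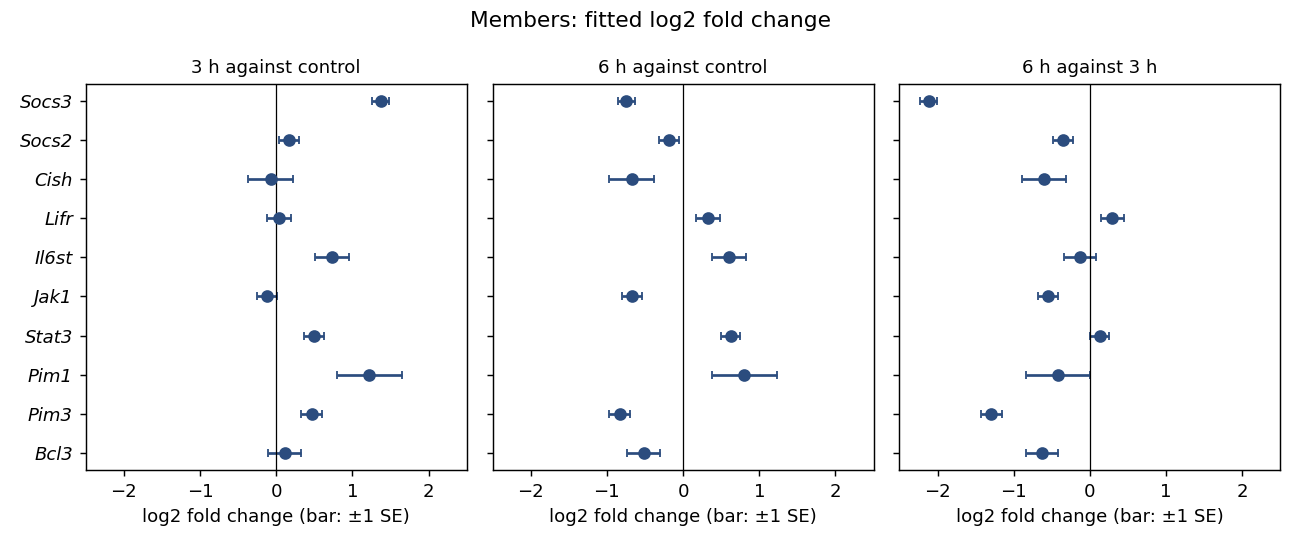
Log2 fold changes of the 10 genes (points) with 1 SE to each side (bars) at 3 h and 6 h against the control and at 6 h against 3 h; the zero line marks no difference. Socs3 lies at 1.37, -0.75 and -2.12 in the 3 comparisons, and Pim1 has the widest bars.

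The rest of the pathway was taken as 58 other genes in 4 lists, drawn up with earlier results of these libraries known. Of these 56 were in the files and 51 passed the filter on low counts. Of the 51, 6 rose and 3 fell at 3 h, 8 rose and 9 fell at 6 h, and none rose and 6 fell from 3 h to 6 h. The shares of all tested genes were 3.6% higher and 1.3% lower at 3 h, 14.8% and 14.3% at 6 h, and 0.455% and 1.18% from 3 h to 6 h. Their median log2 fold change was 0.08 at 3 h, 0.00092 at 6 h and -0.08 from 3 h to 6 h, beside the medians of all genes given above.

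Among cytokines and their receptors, 9 of 11 genes were in the files and 5 had enough counts to test. The shares of all tested genes called were 4.9% at 3 h, 29% at 6 h and 1.64% from 3 h to 6 h. None of the 5 passed the test in any comparison. The 2 with the highest levels were Cntfr, the receptor chain for ciliary neurotrophic factor, and Ctf1, which encodes cardiotrophin 1. Cntfr stood at 26.5 and 9.16 CPM in the control, 24.0 and 25.6 CPM at 3 h, and 23.0 and 22.0 CPM at 6 h. Ctf1 stood at 10.1 and 15.8 CPM in the control, 13.4 and 11.8 CPM at 3 h, and 10.4 and 5.98 CPM at 6 h. Lif itself, named after its values were seen, stood at 3.85 and 3.18 CPM in the control, 4.26 and 3.99 CPM at 3 h, and 5.91 and 6.29 CPM at 6 h (log2 fold change 0.78 ± 0.29 at 6 h, edgeR adjusted p = 0.0729). Lif had 26 to 179 counts a library.

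Of 13 other kinases, STATs and adaptors, 0 passed the test at 3 h and 2 at 6 h, beside 4.9% and 29% of all tested genes. Stat2, a factor of interferon signalling, rose from 6.45 and 3.42 CPM in the control to 12.9 and 15.4 CPM at 6 h, with 8.91 and 7.51 CPM at 3 h. The log2 fold change of Stat2 at 6 h was 1.48 ± 0.30 (edgeR adjusted p = 0.0085), a call lost without 6 h replicate 2 (its value ranged from 1.14 to 2.04 over the 6 fits without 1 library). Shc1, an adaptor that links receptors to the Ras and MAP kinase pathway, fell from 106 and 126 CPM to 61.4 and 61.9 CPM at 6 h. The log2 fold change of Shc1 was -0.91 ± 0.13 (edgeR adjusted p = 0.00262). At 3 h the median log2 fold change of this list was -0.13, and at 6 h it was 0.09.

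Of 13 other inhibitors, 1 passed the test at 3 h and 3 at 6 h, beside 4.9% and 29% of all tested genes. Socs6, a SOCS protein linked to receptor tyrosine kinases, fell at both times, with 22.1 and 26.4 CPM in the control, 14.8 and 13.3 CPM at 3 h, and 10.9 and 11.3 CPM at 6 h. Its log2 fold change was -0.78 ± 0.18 at 3 h (edgeR adjusted p = 0.0467) and -1.12 ± 0.18 at 6 h (edgeR adjusted p = 0.00359). Socs4 rose from 20.97 and 14.1 CPM to 30.2 and 33.6 CPM at 6 h (log2 fold change 0.85 ± 0.20, edgeR adjusted p = 0.0152). Pias3, which encodes a protein inhibitor of activated STAT3, rose from 32.6 and 33.1 CPM to 47.0 and 45.0 CPM at 6 h (0.49 ± 0.13, edgeR adjusted p = 0.0251). The 3 h call of Socs6 held without control replicate 1 and was lost without each of the other 5 libraries (-0.91 to -0.66), while its 6 h call held without each of the 6. The 3 h call of Socs6 was also lost under library size alone (-0.56), with limma-voom, with thinned counts and with only the compared groups. The 6 h call of Socs4 was lost without either 6 h library (0.61 to 1.18 over the 6 fits). That of Pias3 was lost without any 1 of the control or 6 h libraries (0.46 to 0.52).

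Among the 8 genes of the SOCS family, Cish and Socs1 to Socs7, calls went in both directions at 3 h and at 6 h. At 3 h Socs3 was called higher and Socs6 lower. At 6 h Socs4 was called higher and Socs3 and Socs6 lower. From 3 h to 6 h Socs3 was called lower and the other 7 were not called. Of all tested genes 4.9% were called at 3 h, 29% at 6 h and 1.64% from 3 h to 6 h. The limits of the Socs6 and Socs4 calls are given above, and nothing is read from these counts. Socs1, the family member known for restraining interferon signalling, stood at 28.0 and 40.7 CPM in the control, 48.6 and 37.2 CPM at 3 h, and 30.6 and 34.2 CPM at 6 h, with overlap between control and treated libraries.

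Of the 20 other STAT3 targets tested, 6 rose and 2 fell at 3 h, 5 rose and 7 fell at 6 h, and 6 fell from 3 h to 6 h. Among all tested genes 3.6% rose and 1.3% fell at 3 h, and 14.8% and 14.3% at 6 h. From 3 h to 6 h these shares were 0.455% and 1.18%. The list was drawn up with earlier results known, so nothing is read from its counts. The median log2 fold change of the 20 targets was 0.38 at 3 h, -0.08 at 6 h and -0.44 from 3 h to 6 h. These targets are known to answer to other signals as well as to STAT3. The pathway genes that rose at 3 h included immediate-early factors. Fos, a subunit of the AP-1 factor, stood at 1.19 and 2.08 CPM in the control, 14.7 and 14.3 CPM at 3 h, and 4.42 and 3.18 CPM at 6 h. At 3 h Fos rose, with a log2 fold change of 3.21 ± 0.35 (edgeR adjusted p = 0.0024) from 16 and 17 counts in the controls. At 6 h Fos was still higher than the control (1.28 ± 0.35, edgeR adjusted p = 0.0271), and from 3 h to 6 h it fell by 1.93 ± 0.29 on the log2 scale (edgeR adjusted p = 0.0204). The 6 h call of Fos held only without control replicate 2 among the 6 fits that left out 1 library (0.87 to 1.68) and was lost with limma-voom, thinned counts or only the compared groups, and the call from 3 h to 6 h was lost without any 1 of the treated libraries (-2.19 to -1.71).

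Junb, another AP-1 subunit, stood at 69.3 and 80.6 CPM in the control, 236 and 225 CPM at 3 h, and 75.1 and 69.9 CPM at 6 h. Its level at 6 h overlapped the control. At 3 h Junb rose with a log2 fold change of 1.62 ± 0.13 (edgeR adjusted p = 0.000341) and fell by 1.67 ± 0.12 from 3 h to 6 h (edgeR adjusted p = 0.000988), with -0.05 at 6 h against the control (edgeR adjusted p = 0.813). Both of these calls of Junb held without each of the 6 libraries. Klf4, a pluripotency factor reached through STAT3, was named after its values were seen and stood at 238 and 236 CPM in the control, 347 and 380.3 CPM at 3 h, and 216 and 245 CPM at 6 h. It rose at 3 h (log2 fold change 0.62 ± 0.11, edgeR adjusted p = 0.0215) and fell from 3 h to 6 h (-0.66 ± 0.11, edgeR adjusted p = 0.0294). The 3 h call of Klf4 was lost without control replicate 2 or either 3 h library (0.55 to 0.68 over the 6 fits), and the other call without any 1 of the treated libraries (-0.74 to -0.57) or under library size alone (-0.53).

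Icam1 and Cebpd rose at both times. Icam1, an adhesion molecule, stood at 61.0 and 63.9 CPM in the control, 140.0 and 146 CPM at 3 h, and 199 and 189 CPM at 6 h. Its log2 fold change was 1.20 ± 0.11 at 3 h (edgeR adjusted p = 0.00102) and 1.64 ± 0.11 at 6 h (edgeR adjusted p = 8.07e-05). Cebpd, an acute-phase transcription factor, stood at 1.70 and 2.08 CPM in the control, 4.97 and 5.55 CPM at 3 h, and 6.34 and 5.37 CPM at 6 h. Its log2 fold change was 1.49 ± 0.33 at 3 h (edgeR adjusted p = 0.0402) and 1.64 ± 0.32 at 6 h (edgeR adjusted p = 0.00738). The 3 h call of Cebpd was lost without any 1 of the 6 libraries (1.34 to 1.62), with limma-voom, with thinned counts and with only the compared groups, and the 6 h call was lost without 6 h replicate 1 (1.49 to 1.78 over the 6 fits). Icam1 kept both calls without each of the 6 libraries.

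Gbx2, Tfcp2l1 and Vegfa fell. Gbx2 and Tfcp2l1 are STAT3 targets that can sustain self-renewal of mouse embryonic stem cells. Gbx2 stood at 217 and 233 CPM in the control, 164 and 154 CPM at 3 h, and 49.0 and 54.9 CPM at 6 h. Its log2 fold change was -0.50 ± 0.12 at 3 h (edgeR adjusted p = 0.0484), a call that held only without control replicate 1 among the 6 fits that left out 1 library (-0.55 to -0.45), and that was lost under library size alone (-0.27) and with only the compared groups, and -2.11 ± 0.12 at 6 h (edgeR adjusted p = 4.1e-05). Between 3 h and 6 h Gbx2 fell by 1.62 ± 0.12 on the log2 scale (edgeR adjusted p = 0.000988). Tfcp2l1, named after its values were seen, stood at 162 and 170.5 CPM in the control, 80.6 and 69.1 CPM at 3 h, and 55.1 and 61.4 CPM at 6 h. It fell at both times, with a log2 fold change of -1.15 ± 0.13 at 3 h (edgeR adjusted p = 0.00302) and -1.51 ± 0.13 at 6 h (edgeR adjusted p = 0.000265). Vegfa, a growth factor for blood vessels, stood at 21.3 and 21.1 CPM in the control, 16.9 and 12.8 CPM at 3 h, and 5.35 and 4.68 CPM at 6 h. Vegfa fell by 2.08 ± 0.21 on the log2 scale at 6 h (edgeR adjusted p = 0.000548), with -1.57 ± 0.21 from 3 h to 6 h (edgeR adjusted p = 0.0121), a call lost without any 1 of the treated libraries (-1.75 to -1.35). Thus the tested STAT3 targets held genes that rose at 3 h, as Fos, Junb and Icam1 did, and genes that fell at 3 h, as Tfcp2l1 and Gbx2 did.

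**Figure D3:**
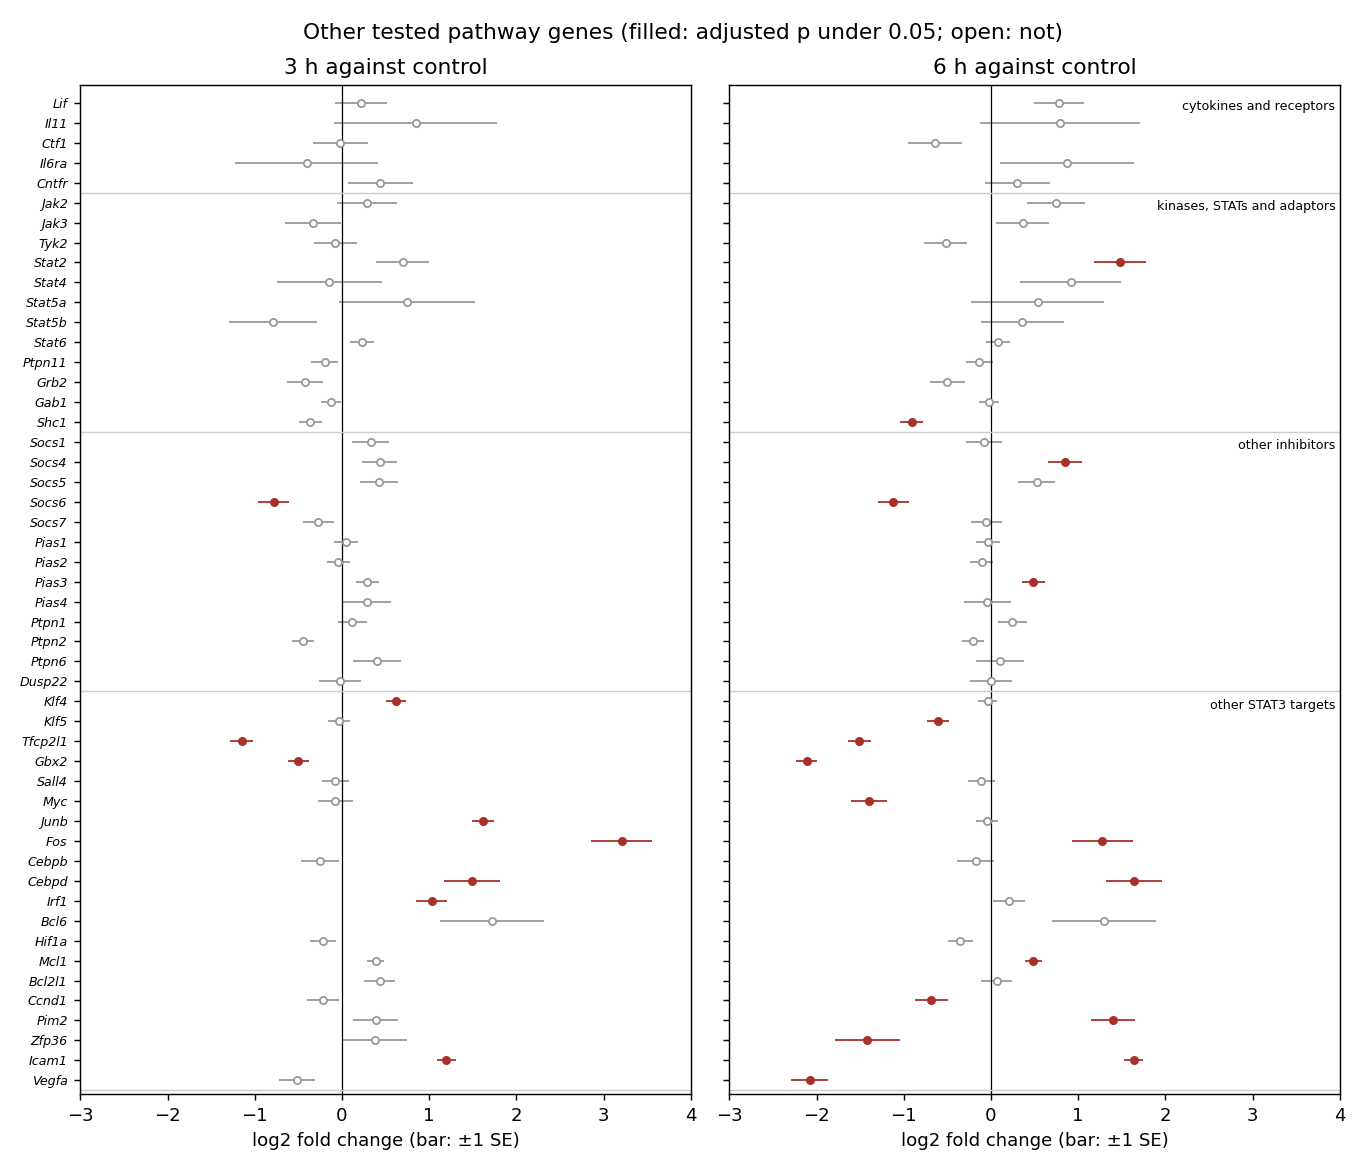
Log2 fold changes of 50 of the 51 other pathway genes tested, grouped by list, at 3 h (left) and 6 h (right) against the control, with bars of 1 SE to each side; filled points passed an edgeR adjusted p under 0.05 and open points did not. None of the 5 cytokine and receptor genes passed at 3 h or 6 h, beside 4.9% and 29% of all tested genes. Of the 20 STAT3 targets, the largest list, 8 passed at 3 h and 12 at 6 h, beside 4.9% and 29% of all tested genes. The lists were drawn up with earlier results of these libraries known.

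The 5 genes with the pattern most like that of Socs3 were found over the 6 libraries, among 11875 tested genes with a descriptive symbol, by the smallest Euclidean distance between log2 CPM values set relative to the control mean. They were Chst5 (distance 0.918), Pdzd7 (1.00), Smad7 (1.07), Junb (1.07) and Mllt3 (1.09). Smad7, the feedback inhibitor of TGF-β signalling, had mean levels of 60.1, 97.9 and 41.5 CPM in the control, 3 h and 6 h groups. Pdzd7 had means of 6.80, 11.4 and 3.31 CPM in the same order. Chst5, with means of 1.74, 3.34 and 1.21 CPM, and Mllt3, with means of 1.90, 3.87 and 1.79 CPM, were measured at low counts. Chst5, Pdzd7, Smad7 and Mllt3 had smaller log2 values at 3 h (0.96, 0.74, 0.70 and 1.02) than Socs3, and Junb a larger one (1.62). At 6 h the value of Junb (-0.05) was within the spread of its control libraries. That of Mllt3 (-0.09) was outside it, though its 6 h libraries lay on both sides of the control mean (-0.26 and 0.066). The choice was made on these same values, so the likeness is a description.

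**Figure D4:**
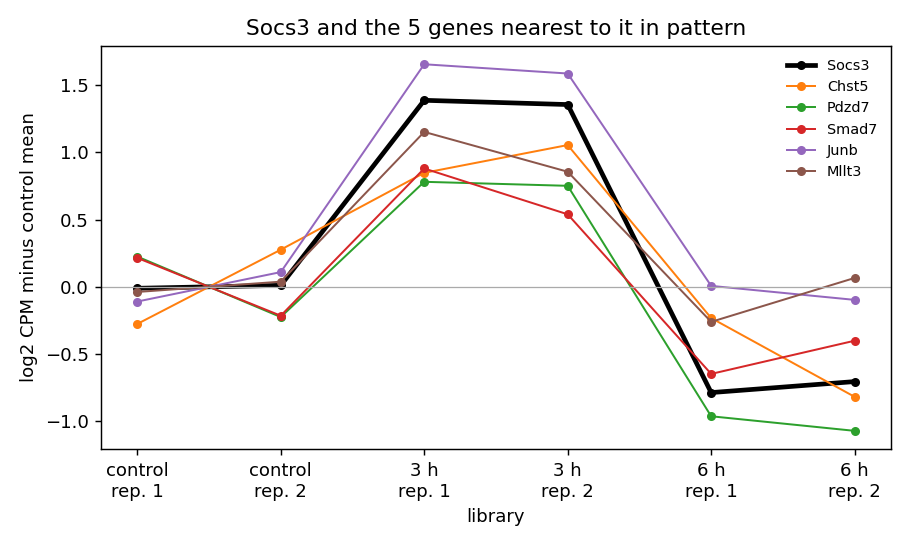
Log2 CPM minus the mean of the 2 control libraries (vertical axis) for Socs3 and the 5 genes nearest to it in pattern, in each of the 6 libraries (horizontal axis, by group). Socs3 reaches 1.39 and 1.36 in the 3 h libraries and -0.79 and -0.70 in the 6 h libraries, and the other genes are highest at 3 h.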

How the data were processed

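RNA-seq was made from 6 libraries. The authors deposited 1 file of whole-number read counts per gene for each library, aligned to mm10 per the submitters' processing notes; the aligner, the counter and its use of strand are not given in the sources used here. No value was missing, negative or fractional over the 17485 genes. Genes with at least 10 counts, as CPM of the median library (0.621), in at least 2 libraries and 15 counts in total were tested (12755). Counts were scaled by TMM and fitted with edgeR's quasi-likelihood test (edgeR 4.0.16, R 4.3.3) over all 6 libraries, with 1 mean per group and 3 residual degrees of freedom. A gene was called at a Benjamini-Hochberg adjusted p under 0.05 over all tested genes. SE is the log2 fold change divided by the root of F. Levels (CPM) are counts relative to the tested genes' TMM-scaled library.

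Genes of each pathway list were named by the rule of up to 6 called genes with the greatest change, or, with none called, the 2 of highest level; others are marked as named after their values were seen. Members and lists were chosen with earlier results of these data known. Within groups, replicates differed by more than counting noise (chi-square per degree of freedom 27.5, 18.7 and 27.7). Alternatives were library-size scaling, DESeq2 1.42.0 (tests and size factors), limma-voom (limma 3.58.1), other filters and thinning to equal depth. Further fits had a replicate block, no mitochondrial genes, the compared groups alone, or each library left out. Promoters came from RefSeq and loci from GENCODE M21. The values of 1 pathway gene are counted in its list but not reported here.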

Additional observations from a re-analysis of the deposited data

Results flagged for a closer look

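Among the 10 members and the 51 other pathway genes tested, 8 were called by the edgeR test of 6 h against 3 h. Of all tested genes 1.64% were called. That test is the difference between the 2 contrasts with the control. The log2 difference was -2.12 for Socs3, -1.29 for Pim3, -1.93 for Fos, -1.67 for Junb, -1.62 for Gbx2, -1.57 for Vegfa, -1.33 for Myc and -0.66 for Klf4. All 8 were lower at 6 h than at 3 h, where 1.18% of all tested genes were called lower and 0.455% higher. Socs3, Gbx2 and Junb kept this call without each of the 6 libraries. The call of Pim3 was lost without either 3 h library or 6 h replicate 2 (-1.47 to -1.13 over the 6 fits), and those of Fos (-2.19 to -1.71), Vegfa (-1.75 to -1.35), Klf4 (-0.74 to -0.57) and Myc (-1.64 to -1.07) without any 1 of the 4 treated libraries. Klf4 was also not called under library size alone (-0.53). Socs3 and Pim3 were chosen on these contrasts, and the others come from lists drawn up with earlier results of these libraries known. The values of all 8 and their fits without 1 library are therefore a description. The 2 treated groups differ in length of treatment and share 1 control, which was exposed for 9 h.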

How the results depend on the processing

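Over 11 other settings the log2 fold change of Socs3 was 1.35 to 1.60 at 3 h, -0.78 to -0.39 at 6 h and -2.17 to -1.99 from 3 h to 6 h. Without mitochondrial genes 626 genes were called at 3 h, 3690 at 6 h and 207 from 3 h to 6 h. In these fits 1, 4 and 2 of the 10 members were called, and 9, 17 and 6 of the other pathway genes. Of all genes, 625 were called at 3 h, with 1373 under library size alone, 1816 with no filter, 1447 with DESeq2, 218 with only the compared groups and 96 to 1018 without 1 library. At 6 h 3703 were called, with 1274 to 3620 without 1 library. From 3 h to 6 h 209 were called, with 1063 with no filter, 688 with DESeq2, 508 with limma-voom, 563 with only the compared groups and 12 to 594 without 1 library. Of the 10 members, 1 was called at 3 h, with 4 under library size alone and with no filter, 3 with DESeq2, 2 with a filter in all 6 libraries or with thinned counts, and 1 to 3 without 1 library. At 6 h 4 were called, with 2 to 5 without 1 library. From 3 h to 6 h 2 were called, with 4 with no filter and 1 to 3 without 1 library. Of the 51 other pathway genes, 9 were called at 3 h (5 with only the compared groups, 4 to 10 without 1 library), 17 at 6 h (9 to 16 without 1 library) and 6 from 3 h to 6 h (14 with no filter, 12 with DESeq2, 12 with limma-voom, 11 with only the compared groups, 2 to 11 without 1 library). At 6 h library size alone called 4173 genes, 5 members and 20 other pathway genes, and no filter called 4574, 6 and 19. From 3 h to 6 h DESeq2 and limma-voom each called 3 members. Fits without 1 library have fewer samples and take the lone library to vary like the other groups. For the rest the cause was not tested.

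Same-numbered libraries showed no strong shared deviation. Their deviations correlated at 0.0832 (control and 3 h), -0.0230 (control and 6 h) and 0.0152 (3 h and 6 h) over 12755 genes. The labels do not say whether same-numbered libraries were paired, and low correlations cannot settle it. With the number as a replicate block 426 genes were called at 3 h, 3550 at 6 h and 126 from 3 h to 6 h. Under the block the 3 h calls of Socs6, Gbx2 and Cebpd and the call of Myc from 3 h to 6 h (-1.33) were lost.

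Values of other pathway genes that changed sign, none of them called, were these, each followed by its range without 1 library. At 3 h Ctf1 stood at 0.21 under library size alone, 0.057 with limma-voom and 0.0086 with thinned counts (-0.32 to 0.32), Klf5 at 0.19 under library size alone (-0.15 to 0.063), Myc at 0.15 (-0.22 to 0.087) and Ccnd1 at 0.0067 (-0.46 to 0.075). Cntfr ranged from -0.10 to 1.44 at 3 h and from -0.23 to 1.30 at 6 h, negative without control replicate 2 alone. At 6 h Junb stood at 0.31 under library size alone (-0.15 to 0.069), and Klf4 at 0.32 and, with a filter in all 6 libraries, at 0.0046 (-0.13 to 0.053). Among the members at 3 h, ranges without 1 library crossed 0 for Cish (-0.28 to 0.15), Lifr (-0.06 to 0.14) and Bcl3 (-0.02 to 0.26); the sign changes of members under library size alone are given above. Of the members' values, 17 moved by more than their spread, each under library size alone, and 493 did not. That spread comes from the same 2 libraries a group, and a fit without 1 of them could hardly exceed it. The 493 are therefore no measure of stability in the fits without 1 library. Depth limits Cish and Il6st most, at 68 to 136 and 52 to 271 counts a library.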

Other observations

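Among STAT3 targets named after their values were seen, Pim2, the third PIM kinase gene, rose from 5.62 CPM in the control to 15.0 CPM at 6 h (log2 fold change 1.40 ± 0.25, edgeR adjusted p = 0.00553). Myc, a growth-promoting factor, fell from 108 CPM to 40.8 CPM at 6 h (-1.40 ± 0.21, edgeR adjusted p = 0.00269) and stood at 102 CPM at 3 h. Irf1, an interferon-response factor, rose from 11.1 CPM to 22.8 CPM at 3 h (1.03 ± 0.18, edgeR adjusted p = 0.0193) and stood at 12.9 CPM at 6 h. Zfp36, whose protein speeds the decay of AU-rich mRNAs, fell from 24.6 CPM to 9.07 CPM at 6 h (-1.42 ± 0.37, edgeR adjusted p = 0.0229). Mcl1, a survival factor, rose from 641 CPM to 898 CPM at 6 h (0.49 ± 0.10, edgeR adjusted p = 0.00849), while Klf5 fell from 770 CPM to 506 CPM (-0.61 ± 0.12, edgeR adjusted p = 0.00862) and Ccnd1 from 150 CPM to 93.5 CPM (-0.68 ± 0.19, edgeR adjusted p = 0.0257). Without each of the 6 libraries in turn, the 6 h calls of Pim2 and Myc held. The calls of Mcl1 (0.41 to 0.57) and Klf5 (-0.74 to -0.47) were lost without 6 h replicate 2, that of Zfp36 (-2.12 to -0.96) without control replicate 2 or 6 h replicate 2, that of Ccnd1 (-0.92 to -0.39) without control replicate 1 or either 6 h library, and the 3 h call of Irf1 (0.92 to 1.15) without any 1 of the treated libraries or with only the compared groups. Under library size alone the 6 h calls of Klf5 (-0.25), Ccnd1 (-0.32) and Zfp36 (-1.07) were lost.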
